A study of Mus musculus with 8 samples.

Results

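The 5 chemokine receptor genes described here, Ccr1, Ccr2, Ccrl2, Cx3cr1 and Cxcr4, were chosen by symbol, and all 5 were found among the 21080 gene symbols measured by RNA-seq in bone marrow-derived macrophages (BMDMs). BMDMs are macrophages grown in culture from mouse bone marrow cells with M-CSF. The study compared cells with and without Nudt21, a subunit of the cleavage factor that helps to choose where an mRNA is cut and polyadenylated. WT samples came from C57BL/6 mice with LysM-Cre, and Nudt21-cKO samples from Nudt21 fl/fl LysM-Cre mice, so both genotypes carry the Cre, which is expressed in myeloid cells. Each genotype was measured at 0 h, without stimulation, and after IFNγ overnight followed by LPS for 4 h, an inflammatory stimulus. There were 2 samples per group, and each pooled the BMDMs of 2 mice. The labels name the treatment for the 0 h samples too, and those samples were taken as untreated from their titles.

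Chemokine receptors are G protein-coupled receptors with which leukocytes read gradients of chemokines. Ccr1 binds Ccl3, Ccl5 and related chemokines, Ccr2 binds Ccl2, Ccl7 and Ccl12 and is needed for monocytes to leave the bone marrow, Cx3cr1 binds the membrane-anchored chemokine Cx3cl1 and marks patrolling monocytes and many tissue macrophages, and Cxcr4 binds Cxcl12 and retains cells in the bone marrow. Ccrl2 is an atypical member that binds chemerin, the product of Rarres2, without known G protein signalling and presents it to other cells. Chemokine receptors on macrophages are known to change with maturation and with bacterial products.

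The value of a gene is its mean read coverage per base, deposited for each sample without scaling between samples, and coverage per base can be compared between genes of different length. Summed over all genes the coverage was 14950347 to 17954882 per sample, and the number of reads behind a single value is not given. Coverage of Nudt21 was 717.7 and 640.8 in WT against 158.3 and 172.3 in cKO at 0 h, and 546.6 and 575.1 in WT against 142.3 and 115.2 in cKO at 4 h, so the genotype labels hold in all 8 samples. All 8 macrophage markers examined were present in every group, whereas the 4 B cell markers summed to at most 4.362 in any sample. The 8 neutrophil markers were present as well, at sums of 17505.9 to 34677.2 per sample, and the 6 stromal and endothelial markers at 54.88 to 316.6. These markers thus do not show that macrophages were the only cells present. Genotypes and times were compared with limma on log2(coverage + 0.1), where a call needed more than a 1.5-fold difference and an unadjusted p under 0.05, and the Benjamini-Hochberg adjusted p over all genes is given with each call of a receptor among the 5. Because the median gene was shifted between groups (log2 shift of cKO against WT of 0.10 at 0 h and 0.31 at 4 h, and of 4 h against 0 h of -1.27 in WT and -1.05 in cKO), each called change of the 5 receptors is also given after every sample was centred on its median, and for other named genes the centred value is given where it changes the call described. The labels do not say whether samples of a group came from separate cultures, so the p-values measure the spread between these samples. In bulk RNA, fewer cells that carry a receptor and less receptor mRNA per cell cannot be told apart, and a change of mRNA ends within a gene would also alter its mean coverage.

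The longest coding transcript has 2 exons in Ccr1, Ccr2, Ccrl2 and Cxcr4 and 3 in Cx3cr1. On GRCm38 (annotation GENCODE M21) 4 of them lie on chromosome 9. Ccrl2 spans chr9:111054486-111057519 on the minus strand, Cx3cr1 chr9:119901616-120069879 on the minus strand, Ccr1 chr9:123962124-123968692 on the minus strand and Ccr2 chr9:124101950-124113557 on the plus strand. Cxcr4 spans chr1:128588199-128592293 on the minus strand. The annotated span of Cx3cr1 overlaps 9 other genes in these data, among them Csrnp1 and Xirp1 on the same strand and Gm33858 on the opposite one, and the library kit named by the study, NEBNext Ultra RNA, does not mark the strand, so reads of overlapping genes on opposite strands cannot be told apart. Chemokine receptor genes of this chromosome are related in sequence, as Ccr1 is to the neighbouring Ccr1l1, and how reads shared by such copies were assigned is not given.

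UGUA is the RNA element that the Nudt21 protein binds near cleavage sites, so the 3′UTR copy of UGUA closest to the transcript end is shown for each receptor, in 30 bases of the annotated mRNA with the element in capitals (GENCODE M21 transcript, GRCm38).
Ccr1: aguuugauacaaaUGUAaauuagugcagua
Ccr2: auuuucaguaaaaUGUAgcccuccaucuug
Ccrl2: ggucauucuuggcUGUAgaguuaguucaag
Cx3cr1: ugucuaucccacuUGUAauucugucaauaa
Cxcr4: aaauguacagucuUGUAuuacauuguuaau
These lie in exon 2 of Ccr1 (chr9:123962724-123962753), exon 2 of Ccr2 (chr9:124109350-124109379), exon 2 of Ccrl2 (chr9:111054515-111054544), exon 3 of Cx3cr1 (chr9:120048710-120048739) and exon 2 of Cxcr4 (chr1:128588220-128588249). The element began 38 bases before the annotated end in Cxcr4, 44 in Cx3cr1 and 46 in Ccrl2, against 145 in Ccr2 and 617 in Ccr1. A UGUA within the last 100 bases was found in 53.4% of the 13507 genes with a 3′UTR and a mean coverage of at least 0.5. Over the whole 3′UTR, Ccr1 had 3 copies in 1300 bases, Ccr2 12 in 2701, Ccrl2 5 in 860, Cx3cr1 7 in 2587 and Cxcr4 7 in 644, where the median gene had 5 copies and 5.05 per kb. Only Cxcr4 of the 5 was dense in them, at 10.87 per kb, above 92.8% of genes. These counts describe the annotated ends, and which ends were used in the BMDMs was not analysed here.

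At 0 h Cxcr4 was the most abundant of the 5 receptor mRNAs in every sample, Ccr1 the second and Ccrl2 the third. Coverage of Cxcr4 was 2303.3 and 1833.1 in WT against 2451.8 and 3090.2 in cKO, which made up 48.0% to 62.2% of the coverage of the 5. Ccr1 stood at 865 and 936.2 in WT against 1086.7 and 875 in cKO. Ccr2 and Cx3cr1 did not differ in order beyond the spread of the WT samples, with 307.6 and 295.3 for Ccr2 and 332.2 and 288.3 for Cx3cr1. In cKO Ccr2 was above Cx3cr1 in both samples. At 4 h, which is a separate deposited table, Ccrl2 had moved from the third to the first place in all 4 samples and made up at least 93.2% of the coverage of the 5, above 99.4% of all genes by its mean in WT and 99.5% in cKO. Ccr1 was the second in all 4 of these samples.

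**Figure D1:**
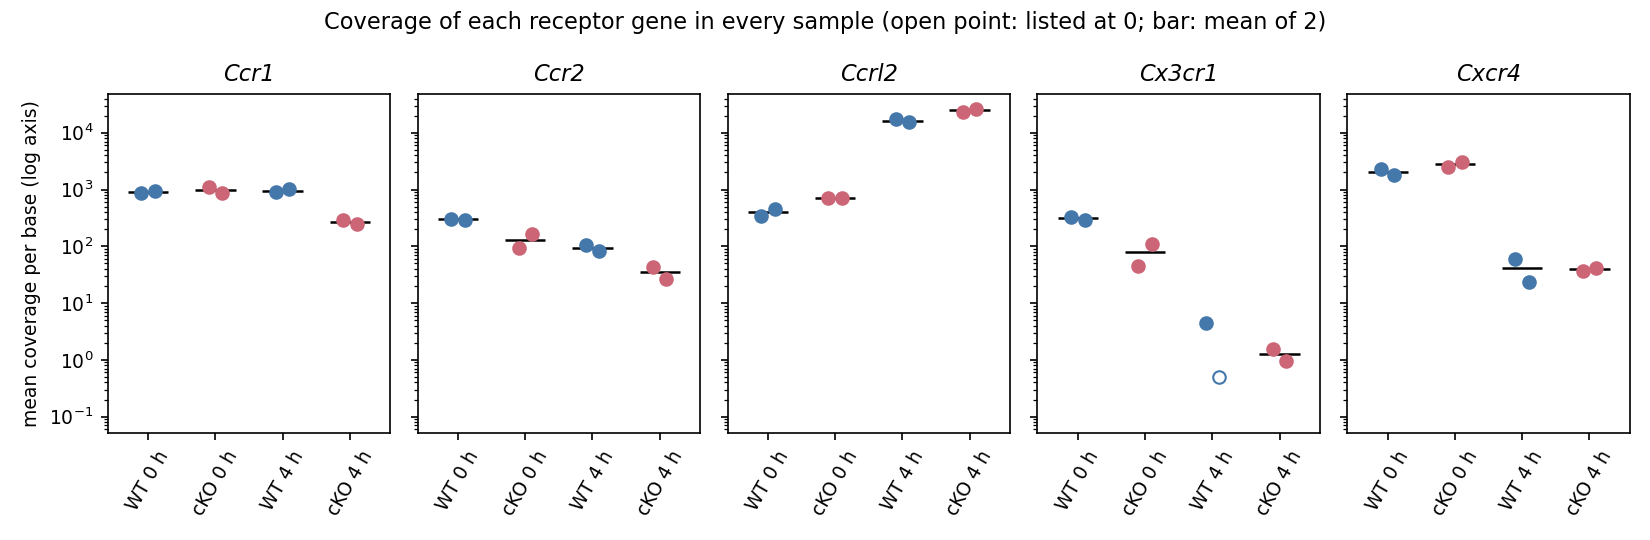
Coverage per base of the 5 receptor genes on a log axis, with 1 point per sample (blue WT, red cKO) and a bar at the mean of 2 where both samples are above 0. Ccrl2 rises by more than an order of magnitude in both genotypes, Cx3cr1 and Cxcr4 fall, and Ccr1 is low only in the cKO samples at 4 h; the open point is Cx3cr1 in WT replicate 2 at 4 h, listed at 0 and drawn at the foot of the data.

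**Figure D2:**
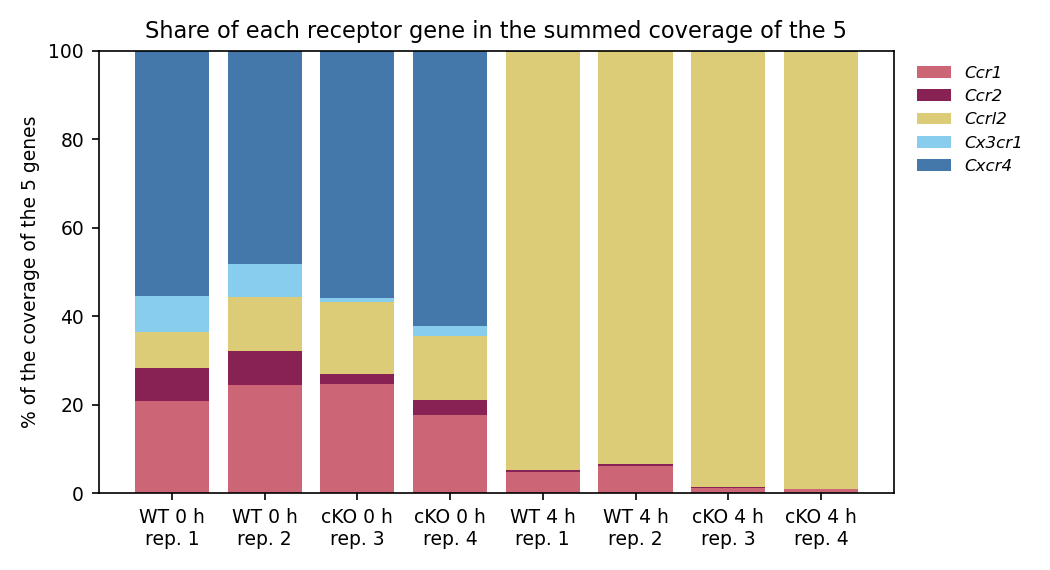
Share of each receptor gene in the summed coverage of the 5, for each of the 8 samples. Cxcr4 holds 48.0% to 62.2% at 0 h and Ccrl2 at least 93.2% at 4 h.

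Without stimulation, Ccr2 and Cx3cr1 were lower in Nudt21-cKO than in WT BMDMs and Ccrl2 was higher, whereas Ccr1 and Cxcr4 were not called. Of the 5, 1 was called higher, against 8.99% of the 16251 genes tested, and 2 were called lower, against 5.61%. After centring the same numbers were called, against 7.25% of genes higher and 6.98% lower. None of the 5 passed an adjusted p of 0.05 in limma, which 1.03% of genes did. With a variance trend on intensity the 3 called receptors passed it, Ccr2 at 0.0240, Ccrl2 at 0.0163 and Cx3cr1 at 0.0136 (adjusted p from limma), as did 11.5% of all genes with that fit.

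Ccr2, the receptor of inflammatory monocytes, had a coverage of 307.6 and 295.3 in WT against 93.55 and 167.8 in cKO at 0 h. Both cKO samples were below both WT samples, although they differed from each other more than the WT samples did. The mean was 2.31-fold lower in cKO and the log2 fold change was -1.27 (limma, standard error 0.35, adjusted p = 0.205), or -1.36 after centring. Cx3cr1 was 332.2 and 288.3 in WT against 45.77 and 110.2 in cKO. Its groups did not overlap either, and cKO replicate 3 had the lowest value of both Ccr2 and Cx3cr1. The mean of Cx3cr1 was 3.98-fold lower in cKO, with a log2 fold change of -2.12 (limma, standard error 0.52, adjusted p = 0.185), or -2.21 after centring. Without WT replicate 1 or WT replicate 2, neither gene was called, at log2 fold changes of -1.24 and -1.29 for Ccr2 and -2.02 and -2.22 for Cx3cr1. Without cKO replicate 3 or cKO replicate 4 both remained called, with sizes that moved to -0.84 and -1.69 for Ccr2 and to -1.49 and -2.75 for Cx3cr1.

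Ccrl2, the chemerin-binding receptor, was 339.9 and 462.7 in WT against 714.5 and 722.3 in cKO at 0 h. The cKO samples did not overlap the WT samples, and their mean was 1.79-fold higher. The log2 fold change was 0.86 (limma, standard error 0.20, adjusted p = 0.177), or 0.76 after centring, and the call was lost without cKO replicate 3 or cKO replicate 4 (0.86 and 0.85). The Ccr1 samples overlapped between genotypes, with a log2 fold change of 0.12 (limma, standard error 0.17, adjusted p = 0.711). Cxcr4 was higher in both cKO samples by a log2 fold change of 0.42, which did not pass the test (limma, standard error 0.21, adjusted p = 0.366) and ran from 0.25 to 0.59 with 1 sample left out.

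Monocyte markers did not all move with Ccr2 and Cx3cr1. The 4 markers Ly6c2, Chil3, Hp and F13a1 summed to 6545.2 to 7558.0 in WT and 6293.1 to 7621.1 in cKO at 0 h, ranges that overlap. F13a1 was the only one called, lower in cKO by a log2 fold change of -1.11, while Ly6c2, which marks inflammatory monocytes, had 639 and 601.9 in WT against 651.8 and 735 in cKO. Among macrophage markers Adgre1 and Fcgr1 were called lower (log2 fold changes of -0.66 and -0.89) and Cd68 higher (0.69). The 6 stromal and endothelial markers summed to 118.3 to 218.6 in WT and 250.4 to 316.6 in cKO, with Col3a1, Pdgfra and Kdr called higher (1.07, 1.17 and 2.14) and Cdh5 lower (-1.29). Kdr was 18.32 and 23.85 in WT against 90.9 and 93.51 in cKO. The 8 neutrophil markers, led by S100a9, summed to 22516.5 to 24425.2 in WT and 26071.4 to 34677.2 in cKO. None of these 8 was called higher by limma, and Retnlg was called lower, at 48.26 and 45.35 in WT against 20.85 and 28.35 in cKO. The part of cell composition in the receptor differences was not tested.

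After IFNγ/LPS, the cKO samples had less Ccr1 and Ccr2 mRNA than the WT samples. Ccr1, whose genotypes overlapped at 0 h, now had a larger fold change than Ccr2, although this order of the 2 genes was not tested. Of the 5 receptors, 2 were called lower, against 4.17% of the 14950 genes tested, and 1 was called higher, against 20.8%. After centring 2 were lower, against 9.90%, and 0 higher by limma, against 10.4%. Ccr1 was the 1 receptor with an adjusted p under 0.05, which 3.86% of genes had. Ccr2 also passed with a variance trend on intensity (adjusted p = 0.0152 from limma) and with one fit over all 8 samples (adjusted p = 0.0403 from limma), and Ccrl2 with the variance trend (adjusted p = 0.0106 from limma). With the variance trend 28.8% of all genes passed, and with the fit over all 8 samples 27.4%.

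Ccr1, the receptor of Ccl3 and Ccl5, was 887.5 and 1006.1 in WT against 291.3 and 245.3 in cKO at 4 h. The higher cKO sample was 3.05-fold below the lower WT sample. The mean was 3.53-fold lower in cKO, with a log2 fold change of -1.82 (limma, standard error 0.16, adjusted p = 0.0475) on the deposited scale and -2.16 after centring (adjusted p = 0.0405 from limma). Ccr1 was called lower with every alternative run, including without each of the 4 samples in turn. Its adjusted p did not stay under 0.05 in all of them, at 0.0661 with no filter on low values, 0.0657 at equal summed coverage, 0.0891 with unmoderated variances and 0.0975 to 0.314 with 1 sample left out (limma).

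Ccr2 was 104.2 and 83.57 in WT against 43.24 and 26.07 in cKO at 4 h. The groups did not overlap, and the mean was 2.71-fold lower in cKO. The log2 fold change was -1.47 (limma, standard error 0.33, adjusted p = 0.0950), or -1.81 after centring, and the call was lost without WT replicate 1 or WT replicate 2 (-1.31 and -1.63). The means of Ccr2 were thus 2.31-fold apart at 0 h and 2.71-fold apart at 4 h. Monocyte markers moved in both directions at 4 h. The 4 together summed to 5105.2 to 5247.9 in WT and, without overlap, to 6935.0 to 7196.9 in cKO, with Hp called higher (1.25) and F13a1 lower (-1.32), and the 6 stromal and endothelial markers summed to 54.88 to 140 in WT and 191.2 to 245.2 in cKO, with Kdr called higher (1.74) and Col3a1 too (1.22, or 0.88 and not called after centring). The 8 neutrophil markers summed to 17505.9 to 21573.5 in WT and 21850.4 to 24871.7 in cKO, also without overlap, with Camp called higher (0.66, or 0.33 and not called after centring) and Retnlg lower. These sums are on the deposited scale. After centring the median log2 fold change was -0.11 for the neutrophil markers, with 0 called higher and 2 lower. It was 0.11 for the monocyte markers and 0.95 for the stromal and endothelial markers. The 8 macrophage markers summed to 64069.9 to 65059.8 in WT and 70588.3 to 75277.7 in cKO, carried by Cd68 at 12361.8 and 13101.0 in WT against 24827.0 and 28817.4 in cKO. Their median log2 fold change was -0.08, with Cd68 and Lyz2 called higher, and after centring it was -0.41, with Cd68 called higher and Adgre1 and Fcgr1 lower. The part of these markers in the receptor differences was not tested.

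Ccrl2 was 17560.6 and 15221.8 in WT against 23049.3 and 26271.6 in cKO at 4 h, and both cKO samples were above both WT samples. Its log2 fold change of 0.59 (limma, standard error 0.15, adjusted p = 0.106) was called on the deposited scale but was 0.25 and not called after centring, against a median shift of 0.31 in all genes. It was also not called without WT replicate 2, cKO replicate 3 or cKO replicate 4 (0.49, 0.68 and 0.50). Cxcr4 was 59.3 and 23.22 in WT against 36.98 and 41.81 in cKO, so both cKO samples lay between the WT samples. Its log2 fold change of 0.08 (limma, standard error 0.56, adjusted p = 0.932) became -0.25 after centring. Without WT replicate 1 Cxcr4 was called higher in cKO (0.76), and without WT replicate 2 it had a log2 fold change of -0.59. Cx3cr1 was near the floor of the measurement at 4 h, at 4.478 and listed at 0 in WT and at 1.565 and 0.9365 in cKO, and its genotypes could not be told apart.

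**Figure D3:**
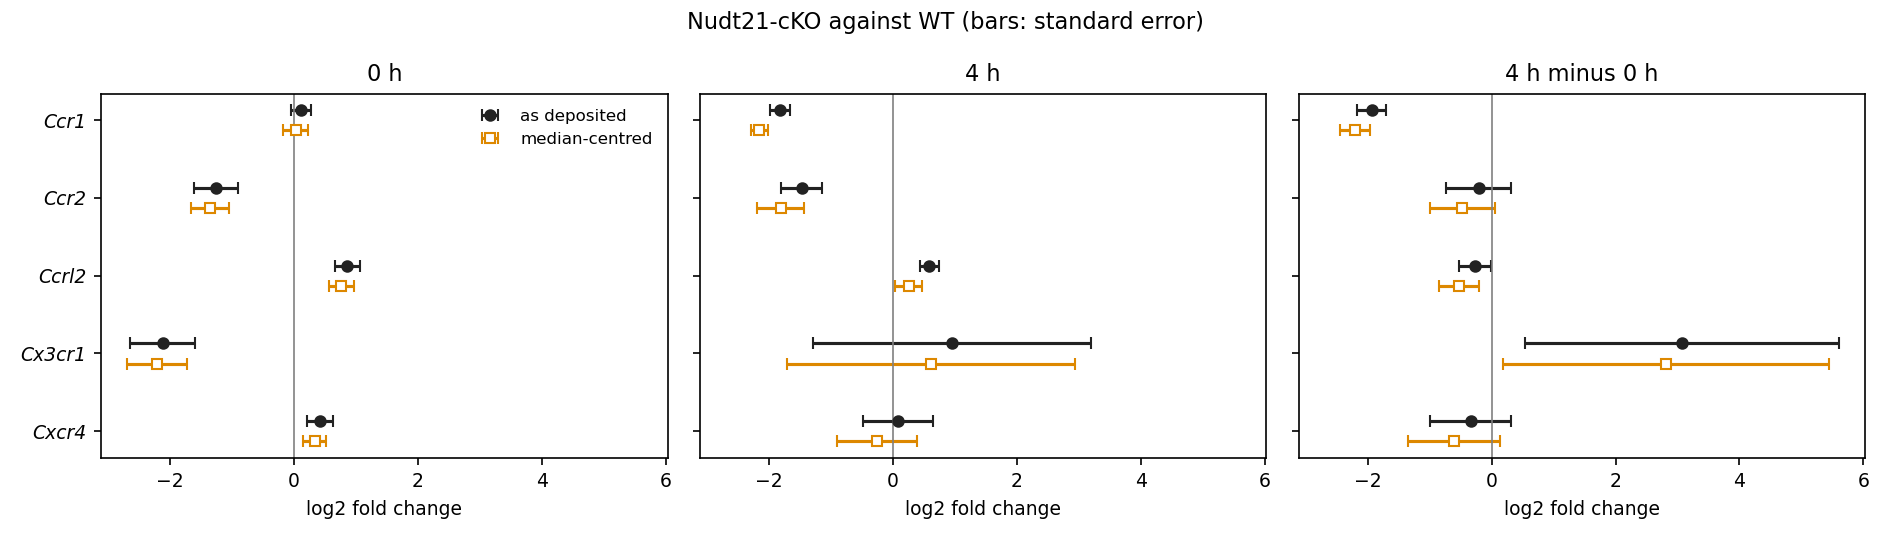
Log2 fold change of Nudt21-cKO against WT at 0 h, at 4 h and as the difference between the times, with standard errors, on the deposited scale (filled) and after centring on the median gene (open). Ccr1 lies at 0.12 at 0 h and at -1.82 at 4 h, Ccr2 is below 0 at both times, and Cx3cr1 at 4 h has a standard error of 2.25.

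The genotype difference of Ccr1 itself differed between the times. The difference of its genotype effects, 4 h minus 0 h, was -1.94 on the log2 scale (limma, standard error 0.23, adjusted p = 0.0275), or -2.20 after centring (adjusted p = 0.0252 from limma). Ccr1 was the 1 receptor of the 5 with an adjusted p under 0.05, called lower, against 0.761% of the 16284 genes tested and 1.06% after centring. The adjusted p stood at 0.0541 after quantile normalization and between 0.0546 and 0.0882 without WT replicate 1 or 2 or cKO replicate 3 of 0 h, or WT replicate 1, cKO replicate 3 or cKO replicate 4 of 4 h, at log2 values of -1.78 to -2.06. With the replicate number as a block it was 0.110, or 0.132 with centring, and these calls were lost too. The other 4 receptors did not pass, with differences of -0.21 for Ccr2 (standard error 0.53), -0.27 for Ccrl2 (0.26), -0.34 for Cxcr4 (0.65) and 3.08 for Cx3cr1 (2.53, a value that rests on the WT sample listed at 0). For Ccr2 these data thus do not separate an unchanged genotype difference from one that moved by its standard error in either direction.

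The stimulus itself raised Ccrl2 and lowered Cxcr4 and Cx3cr1 in both genotypes. Ccrl2 rose from 339.9 and 462.7 to 17560.6 and 15221.8 in WT and from 714.5 and 722.3 to 23049.3 and 26271.6 in cKO. The means differed 40.8-fold in WT and 34.3-fold in cKO, with log2 fold changes of 5.37 (limma, standard error 0.23, adjusted p = 0.00253) and 5.10 (0.11, adjusted p = 0.00109 from limma). Cxcr4 fell 50.1-fold in WT and 70.3-fold in cKO, by log2 fold changes of -5.79 (0.57, adjusted p = 0.00640 from limma) and -6.13 (0.17, adjusted p = 0.00130 from limma). The size in WT rests on 4 h samples that lie apart, and it was -6.46 without WT replicate 1 and -5.11 without WT replicate 2 of 4 h. Cx3cr1 fell as well, and the lowest 0 h sample exceeded the highest 4 h sample 64.4-fold in WT and 29.2-fold in cKO. Its fitted log2 fold change in WT, -8.84 (adjusted p = 0.0414 from limma), includes the sample listed at 0 and was -7.05 with a pseudocount of 1 and -10.51, not called, with 0.01. It was not called either without WT replicate 1 or 2 of 0 h (-8.74 and -8.94), and it was -11.60 and -6.08 without WT replicate 1 or 2 of 4 h. In cKO, where no sample was at 0, it was -5.76 (0.59, adjusted p = 0.00588 from limma), or -6.39 and -5.13 without cKO replicate 3 or 4 of 0 h. These 3 genes kept their direction in both genotypes after centring, at 6.82, -4.33 and -7.39 in WT and 6.30, -4.92 and -4.56 in cKO. The times were deposited as separate tables, and the sources used here do not say that they were scaled together.

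For Ccr1 and Ccr2 the response depended on the scale, on the genotype or on both. In WT the coverage of Ccr1 was 865 and 936.2 at 0 h and 887.5 and 1006.1 at 4 h, which overlap, with a log2 fold change of 0.07 on the deposited scale (adjusted p = 0.694 from limma) and of 1.52, called higher, against the median gene (adjusted p = 0.00739 from limma). In cKO it fell from 1086.7 and 875 to 291.3 and 245.3, which was 3.66-fold and called on both scales (-1.87, adjusted p = 0.00525 from limma, and -0.66 after centring, adjusted p = 0.0747 from limma). Ccr2 was lower at 4 h on the deposited scale, 3.21-fold in WT (-1.69, adjusted p = 0.00695 from limma) and 3.77-fold in cKO (-1.90, adjusted p = 0.0389 from limma). Relative to the median gene the change of Ccr2 was -0.24 and -0.69 and was not called. The Ccr2 call in cKO was also lost without any 1 of its 4 samples, at -1.48 to -2.32. In WT, 1 receptor was called higher against 11.9% of the 16002 genes tested and 3 lower against 55.1%, and in cKO 1 was called higher against 13.7% of 16223 genes and 4 lower against 53.2%. After centring 2 were higher and 2 lower in WT, against 33.5% and 22.4% of genes, and 1 was higher and 3 lower in cKO, against 32.7% and 23.2%. An adjusted p under 0.05 was had by 4 receptors in WT, against 64.8% of genes, and by 5 in cKO, against 69.7%. A fall on the deposited scale was thus the commonest outcome of all genes, and the rise of Ccrl2 was the less common one. As a check of the stimulus, 8 of 8 genes known to respond to IFNγ/LPS were called higher in each genotype.

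**Figure D4:**
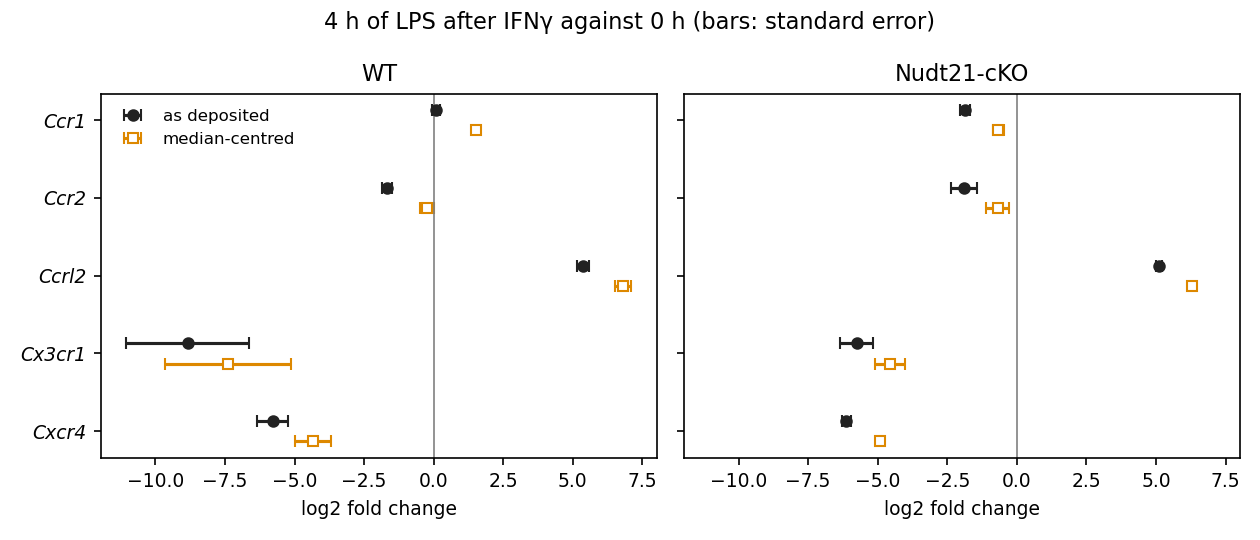
Log2 fold change of 4 h against 0 h in WT and in Nudt21-cKO, with standard errors, on the deposited scale (filled) and after centring (open). Ccrl2 stands above 5 in both genotypes and Cxcr4 and Cx3cr1 below -4, whereas Ccr1 lies at 0.07 in WT and -1.87 in cKO on the deposited scale, and at 1.52 and -0.66 after centring.

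Sequence around the start sites was searched for motifs of factors that act in stimulated macrophages, in the 250 bases before to 50 bases after each RefSeq start (GRCm38.p6). All 5 receptors had an entry, and Ccrl2 had 3. Motifs were searched on both strands, namely the NF-κB consensus, the ISRE, the GAS TTCNNNGAA, the AP-1 site TGANTCA and the PU.1 core GAGGAA. The matches are shown for Ccrl2, which rose with the stimulus, and for Ccr1, the receptor with an adjusted p under 0.05 between genotypes at 4 h, in 30 bases each with the motif in capitals.
Ccrl2, NF-κB consensus: actttcccccGGGGCTTCCCctgagcgggg
Ccr1, NF-κB consensus: ctttagaaggGGGAGGCTCCtcactgacca
Ccr1, PU.1 core: ccagatgattttGAGGAAcaggatatgagt
The windows are chr9:111057555-111057584 for Ccrl2, with the motif 56 to 47 bases before 1 of its 3 starts, and chr9:123968747-123968776 and chr9:123968804-123968833 for Ccr1, all on the minus strand. An NF-κB consensus was present in 11.6% of the 14609 genes with an entry and a PU.1 core in 31.3%. No match to these 5 motifs was in the windows of Ccr2, Cx3cr1 and Cxcr4, which says only that these letters are not there.

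Of 18 other chemokine receptor genes examined, 16 were in the files. At 0 h 10 of them were tested, with 1 called higher, against 8.99% of all genes, and none lower by limma, against 5.61%, so the share is near that of all genes. The 1 was Cxcr3, the receptor of interferon-induced chemokines, at 15.61 and 20.49 in WT against 43.17 and 45.7 in cKO (log2 fold change 1.31, adjusted p = 0.111 from limma). At 4 h 8 were tested and 1 was called lower, Xcr1, against 4.17% of all genes, or 3 after centring, against 9.90%, with none higher by limma on either scale. Xcr1, the receptor of Xcl1 and a marker of cross-presenting dendritic cells, was 17.48 and 52.36 in WT against 4.636 and 2.318 in cKO (-3.17, adjusted p = 0.101 from limma). The 6 dendritic cell markers, Xcr1 among them, summed to 1229.4 to 1952.3 in WT and 1040.1 to 1073.5 in cKO at 4 h, most of it Clec9a, which was not called on the deposited scale (-0.55) and lower after centring (-0.89). At 0 h the same 6 summed to only 31.84 to 44.38 in WT and 38.62 to 54.71 in cKO. Xcr1, at 0.000244 or lower at 0 h, was called higher with the stimulus in WT (8.24) and cKO (5.08), sizes that depend on the pseudocount. Zbtb46, a transcription factor of dendritic cells, was called higher, at 6.589 and 7.083 in WT against 16.55 and 23.92 in cKO, and the part of such cells in Xcr1 was not tested. With the stimulus, Ccr7, which guides dendritic cells to lymph nodes, rose in WT from 2.942 and 4.484 to 131.5 and 200.1 (5.44, adjusted p = 0.00381 from limma). In cKO it was called too (4.57, adjusted p = 0.0564 from limma). Cxcr2, a neutrophil receptor, was called lower in WT, from 13.33 and 15.01 to 0.5116 and listed at 0. Ccr1l1 was called lower in both genotypes, from 12.95 to 22.56 over the 4 samples at 0 h to 0.2573 to 3.835 at 4 h, although in cKO it was not called after centring (-2.97).

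Of 13 receptors for other chemoattractants, 12 were tested at 0 h and 2 of them were called higher, against 8.99% of all genes. Ptafr, the receptor of platelet-activating factor, was 996.9 and 1304.2 in WT against 1850.2 and 1895.2 in cKO, and Ltb4r1, a leukotriene B4 receptor, was 53.91 and 43.36 in WT against 69.2 and 88.2 in cKO. At 4 h 11 were tested. Ptafr was the 1 called higher (0.88, or 0.54 and not called after centring), against 20.8% of all genes, and P2ry12, an ADP receptor, the 1 called lower (-0.60, or -0.93 after centring), against 4.17%. After centring none was higher by limma and 3 were lower, against 10.4% and 9.90% of all genes. The stimulus raised the formyl peptide receptors in both genotypes, with Fpr2 at 46.66 and 102.4 before and 3525.5 and 2760.5 after in WT (5.49) and at 51.91 and 32.67 before and 2087.0 and 2770.1 after in cKO (5.86). Fpr1 was also called higher in both (3.76 and 3.02). S1pr1, a receptor for sphingosine 1-phosphate, was called lower in both (-3.93 and -4.70).

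The ligands of the 5 receptors moved in both directions in cKO. Of 13 ligand genes, 11 were tested at 0 h, with 3 called higher, against 8.99% of all genes, and 1 lower, against 5.61%. All 13 were tested at 4 h, with 4 called higher, against 20.8% of all genes, and 2 lower, against 4.17%, or 2 and 3 after centring, against 10.4% and 9.90%. Ccl2, a ligand of Ccr2, was 151.8 and 104.8 in WT against 830.8 and 973.2 in cKO at 0 h, and 2992.0 and 3255.9 in WT against 12777.6 and 13772.7 in cKO at 4 h. Ccl2 was thus higher in the genotype in which its receptor was lower at both times, with log2 fold changes of 2.83 (adjusted p = 0.0728 from limma) and 2.09 (adjusted p = 0.0325 from limma). Ccl7, another ligand of Ccr2, was 16.57 and 61.82 in WT against 312 and 312.7 in cKO at 0 h (3.28, adjusted p = 0.174 from limma). Ccl12, which also binds Ccr2, was listed at 0 in all 0 h samples and was 3209.7 and 3098.5 in WT against 1175.0 and 997.2 in cKO at 4 h (-1.54, adjusted p = 0.0475 from limma). Ccl8 was lower in cKO as well at 4 h, at 816.9 and 832.7 in WT against 220.6 and 232.9 in cKO (-1.86, adjusted p = 0.0325 from limma).

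Among the ligands of Ccr1, Ccl3 and Ccl5 were not called between genotypes at 4 h. Ccl3 was 348700.6 and 218921.1 in WT against 174333.4 and 189712.2 in cKO, and its log2 fold change of -0.60 (limma, standard error 0.29, adjusted p = 0.259) did not pass. Ccl5 was 244735.4 and 179503.1 in WT against 201853.2 and 231389.3 in cKO, which overlap (0.04, standard error 0.22). Cx3cl1, a ligand of Cx3cr1, and Cxcl12, a ligand of Cxcr4, were low in the BMDMs, at 2.567 to 34.85 and at 0 to 30.3 over the 8 samples, and neither was called between genotypes. Mif, another of the 13 ligand genes, was abundant. Its genotypes overlapped at 0 h, and at 4 h it was 3912.3 and 3737.5 in WT against 6137.4 and 7478.9 in cKO on the deposited scale. Rarres2, which encodes the Ccrl2 ligand chemerin, was no higher than 7.389 in any sample. It was nevertheless the 1 ligand called lower at 0 h, at 2.229 and 6.088 in WT with both cKO samples listed at 0, and 1 of the 4 called higher at 4 h, at 0.3849 and 1.186 in WT against 7.389 and 4.349 in cKO. With the stimulus 8 of 13 ligand genes were called higher in WT, against 11.9% of all genes, and none lower by limma, against 55.1%. In cKO 11 were called higher, against 13.7%, and 2 lower, against 53.2%.

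Of 30 genes for signalling from chemokine receptors, 28 were tested at each time. At 0 h 3 were called higher and 2 lower in cKO, against 8.99% and 5.61% of all genes, with a median log2 fold change of 0.01 against 0.10 over all genes. At 4 h 8 were called higher and 1 lower, against 20.8% and 4.17%, with a median of 0.31 that equals the 0.31 over all genes. After centring the 4 h counts were 3 higher and 6 lower, against 10.4% and 9.90%. Pik3cg, the phosphoinositide 3-kinase that Gβγ activates, was called lower at both times and on both scales, at 920.8 and 1055.5 in WT against 646.9 and 665 in cKO at 0 h and 628.1 and 637.1 in WT against 320.9 and 278.8 in cKO at 4 h (log2 fold changes of -0.59 and -1.08). Rgs18, which shortens G protein signals, was called higher at both times and on both scales, at 288.7 and 303.4 in WT against 519.8 and 612.1 in cKO at 0 h and 17.87 and 33.53 in WT against 71.4 and 83.79 in cKO at 4 h (0.93 and 1.66). Gng2, a Gγ subunit, was higher at 0 h (1.05), and Rgs1, another inhibitor of G protein signals, at 4 h (1.24, or 0.90 after centring). None of these genotype differences had an adjusted p under 0.05 in limma. Arrb1, which encodes a β-arrestin that uncouples and internalises receptors, fell with the stimulus from 1162.2 and 1360.2 to 81.39 and 120 in WT (-3.67) and from 1809.7 and 1914.7 to 169.4 and 197.1 in cKO (-3.35), and remained lower after centring (-2.22 and -2.14).

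Ccr1 and Ccr2 lie in a cluster of chemokine receptor genes, and 16 other genes that start within 500 kb of the Ccr1 start were examined. At 4 h 14 of them were tested, with 4 called higher in cKO, against 20.8% of all genes, and 3 lower, against 4.17%. The 3 lower ones were Ccr2 and Xcr1, at 133.3 and 106.7 kb from the Ccr1 start, and Lztfl1, which is no chemokine receptor (-1.14). The receptor genes Ccr3, Ccr9, Cxcr6 and Ccr1l1 of the same stretch were not called on the deposited scale, although Ccr3 (-0.49) was called lower after centring (-0.83). Fyco1, which lies between Lztfl1 and Ccr1, was higher on the deposited scale (0.83) and not called after centring (0.49), so lower calls did not extend over the whole stretch. At 0 h 2 of 15 tested neighbours were lower, Ccr2 itself and Slc6a20b, against 5.61% of all genes, and 1 was higher, against 8.99%. Lztfl1 (-0.52 at 0 h) was called lower as well after centring (-0.61). Of the Ccrl2 neighbours, 12 were tested at 0 h and 11 at 4 h, with 2 called higher and none lower by limma at each time. Of all genes 8.99% were called higher and 5.61% lower at 0 h, and 20.8% and 4.17% at 4 h. Prss50 was called higher in cKO at 0 h and 4 h (1.73 and 5.39, both with an adjusted p under 0.05) and Prss46 at 0 h (2.09), at 199.6 and 213.0 kb from the Ccrl2 start, and Nbeal2 at 4 h (0.65, or 0.31 and not called after centring). Around Cx3cr1, 1 of 11 genes tested at 0 h was higher, Gm2449 (0.95), against 8.99% of all genes, and 3 were lower, against 5.61%. The lower ones were Xirp1 (-1.65) and Gm33858 (-1.53), both inside its annotated span, and D830035M03Rik (-2.86). At 4 h 13 were tested, with 0 higher by limma, against 20.8%, and 2 lower, Xirp1 (-1.21) and Eif1b (-0.70), against 4.17%. No neighbour of Cxcr4 was called between genotypes on the deposited scale, of 6 tested by limma at 0 h and 5 at 4 h, although Zranb3 (-0.55 at 4 h) was called lower after centring (-0.88).

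**Figure D5:**
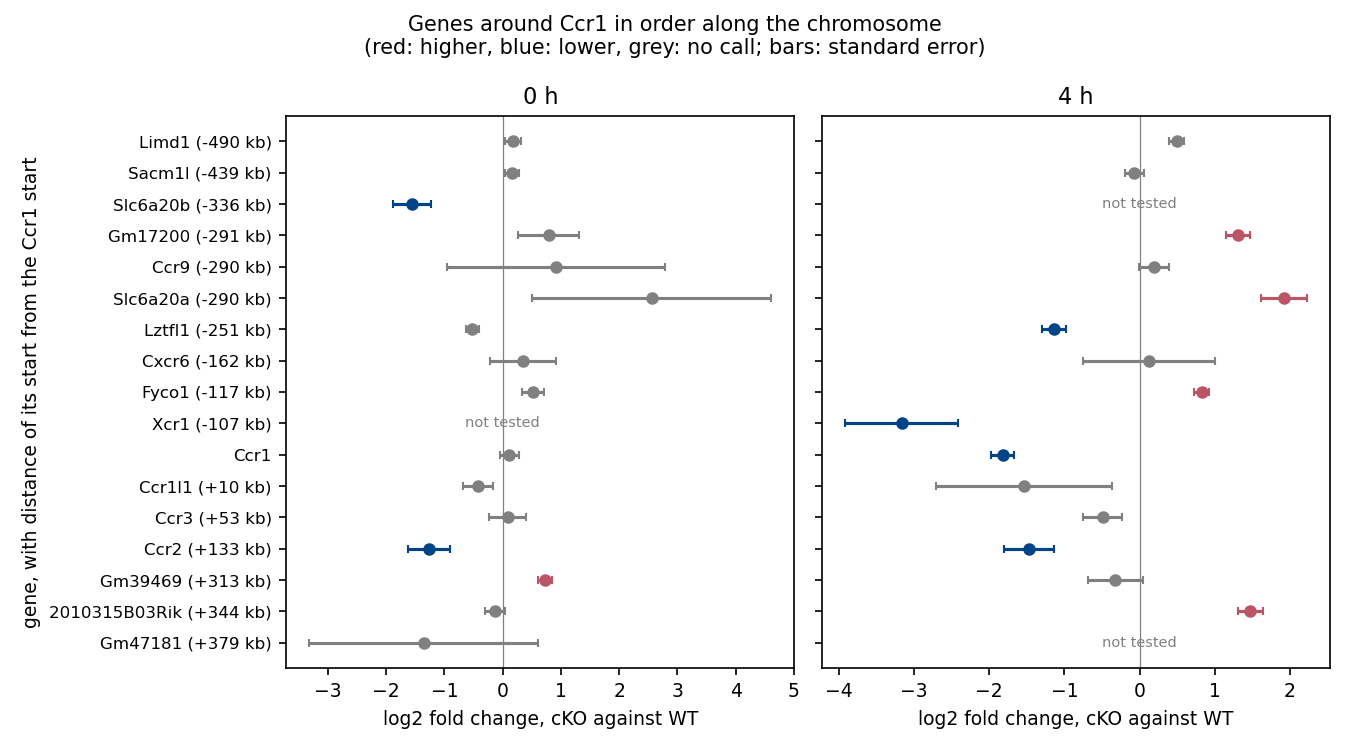
Log2 fold change of Nudt21-cKO against WT, with standard errors, for the genes examined whose start lies within 500 kb of the Ccr1 start, in chromosome order from top to bottom, with red for genes called higher and blue for genes called lower. At 4 h Ccr1, Ccr2, Xcr1 and Lztfl1 are lower, among 4 genes that are higher and others that are not called.

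Over the 8 median-centred samples, the genes with the pattern most like each receptor were found by Pearson's r, as a description over 8 samples that share 4 groups. For Ccr1 these were Fcgr3 (r = 0.992), Anapc4 (0.986) and Zcchc7 (0.985). Fcgr3, an activating receptor for IgG, was 17979.6 and 19311.7 in WT against 19094.8 and 19698.2 in cKO at 0 h, and 9478.4 and 11102.4 in WT against 7012.5 and 6820.6 in cKO at 4 h. For Ccr2 they were Vps45, Kif19a and Tpd52l2 (0.969, 0.964 and 0.958), for Ccrl2 Rel, which encodes an NF-κB subunit, with Armc8 and Kcnh4 (0.9996 or higher each), for Cx3cr1 Slc37a1, 2610301B20Rik and Olfml3 (0.983, 0.982 and 0.981) and for Cxcr4 Pcp4l1, Fam219b and Ercc5 (0.999, 0.997 and 0.996). Among the 5 receptors themselves, Cx3cr1 and Cxcr4 were alike (r = 0.914), Ccrl2 ran opposite to both (-0.871 and -0.970), and Ccr1 was closest to Ccr2 (0.608). The high values for Ccrl2, Cx3cr1 and Cxcr4 arise over 2 times that are far apart.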

How the data were processed

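RNA-seq of BMDMs was analysed in 8 samples, 2 per genotype and time. Per the labels and methods, the authors aligned reads with HISAT2 2.2.1 and quantified genes with StringTie 2.1.7, and they deposited 1 value per gene and sample in a table for each time. The deposited values carry no unit name and were read as a coverage signal, since 293 of 367 low values (79.8%) of genes with 1 exon became whole bases within 0.02 when multiplied by length. The authors' fold changes and p-values were not used, and 0 columns of sample values were left out.

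Values were compared on log2(coverage + 0.1) with limma 3.58.1 in R 4.3.3, over genes with a mean of at least 0.5 in the samples compared, within each time, within each genotype, and for the difference of the genotype effects over all 8 samples. Calls used a fold above 1.5 and p under 0.05, the study's rule; the difference used an adjusted p under 0.05. The comparison was also run on simulated data with the same spread for every gene, which these data do not have. That run checks the code only and does not show how well the calls hold here. The members and lists were chosen with earlier results of these data known. Named genes were the 5 receptors, the 3 most alike genes, and genes among the 2 largest called rises and falls of each list and comparison. Not all of the latter are given. Itpr1, called lower in cKO at 0 h (-0.81), is among those left out, as are the stimulus changes of C5ar2, C3ar1, Ccr10 and Grk3. Ccl3, Ccl5, Cx3cl1, Cxcl12, Mif, Ccl7 at 0 h, the marker genes and neighbours named singly were picked after their values were seen. GENCODE M21 on GRCm38 gave positions and 3′UTRs (20726 of 21080 symbols matched), and RefSeq gave promoters. Replicate numbers 1 and 2 (WT) and 3 and 4 (cKO) recur at both times. Alternatives covered the pseudocount, filter, scaling, variance estimate, samples in the fit and left-out samples. Use of alternative mRNA ends was not analysed here. Some listed genes are not reported here.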

Additional observations from a re-analysis of the deposited data

Results flagged for a closer look

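Genes for which the genotype difference at 4 h differed from that at 0 h by the test of that difference were listed among the receptors and their ligands. For Ccr1 the difference of the genotype effects was -1.94 on the log2 scale (adjusted p = 0.0275 from limma), with genotypes that overlapped at 0 h and both cKO samples of 4 h below both WT samples. For Cxcr3 it was -1.59 (adjusted p = 0.0476 from limma), from a coverage that was higher in both cKO samples at 0 h and lower in both at 4 h. For Ccl12 it was -1.54 (adjusted p = 0.0180 from limma), and since Ccl12 was listed at 0 in all 0 h samples this value is the genotype difference at 4 h. For Rarres2 it was 8.12 (adjusted p = 0.0256 from limma), from values of 7.389 and lower with both cKO samples listed at 0 at 0 h, so its size depends on the pseudocount.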

How the results depend on the processing

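With 2 samples per group a call rests on few samples, and leaving 1 out assumes that the lone sample varies like the other group. The number of receptors called higher at 0 h, 1, became 0 with unmoderated variances and ranged from 0 to 1 with 1 sample left out. The number called lower, 2, became 0 with unmoderated variances, 1 with one fit over all 8 samples (Cx3cr1 lost), and 0 to 2 with 1 sample left out. At 4 h the 1 called higher became 0 after median-centring, quantile normalization, scaling to equal summed coverage or unmoderated variances, and 0 to 3 with 1 sample left out, where 3 (Ccrl2, Cx3cr1 and Cxcr4) followed from leaving out WT replicate 1. The 2 called lower became 1 with unmoderated variances and 1 to 2 with 1 sample left out. For the stimulus in WT, the 1 called higher became 2 after median-centring and the 3 called lower became 1 after quantile normalization (Ccr2 and Cx3cr1 lost) and 2 after median-centring (Ccr2 lost), with a pseudocount of 0.01, with unmoderated variances or without either WT sample of 0 h (Cx3cr1 lost). The 1 receptor with a different genotype effect between the times (Ccr1) became 0 after quantile normalization and 0 to 1 with 1 sample left out. Signs turned only for differences that were not called in the comparisons as reported. Ccr1 at 0 h was -0.0077 after quantile normalization and -0.0067 at equal summed coverage, and ran from -0.041 to 0.27 with 1 sample left out. Cx3cr1 at 4 h was -0.071 with a pseudocount of 1 and ran from -1.80 to 3.72 with 1 sample left out. Cxcr4 at 4 h was -0.25, -0.24 and -0.13 after median-centring, quantile normalization and equal summed coverage, and ran from -0.59 to 0.76, with -0.0052 without cKO replicate 4. The stimulus change of Ccr1 in WT ran from -0.020 to 0.16. The difference of the genotype effects ran from -0.63 to 0.22 for Ccr2 (0.16 without cKO replicate 4 of 4 h) and from -1.01 to 0.34 for Cxcr4. The cause of these changes was not tested.

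Deviations of samples with the same replicate number correlated at 0.0204 in WT and 0.0237 in cKO over 16284 genes, and the main fits did not pair them. This correlation takes in genes of low coverage, so it cannot exclude that the same pools were measured at both times. With the replicate number as a block, 0 receptors had a different genotype effect between the times (Ccr1 -1.94, adjusted p = 0.110 from limma), also with block and median-centring together (Ccr1 -2.20, adjusted p = 0.132 from limma), an alternative chosen after seeing the data. Under that setting 2 receptors were called higher with the stimulus in WT, and with the block Ccr2 in cKO (-1.90) was not called.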
